A study of Mus musculus with 2 samples.

Results

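The immediate early genes described here are Fos, Fosb, Fosl1, Jun, Junb, Atf3, Egr1, Nr4a1, Ier2 and Ier3, 10 of the 31053 genes counted in primary mouse aortic vascular smooth muscle cells (VSMCs). Genes of this kind are transcribed within minutes of a stimulus, without new protein synthesis, and their mRNAs are short-lived. Serum, growth factors and stretch are known to induce them in cultured smooth muscle. Fos, Fosb, Fosl1, Jun and Junb encode subunits of the dimeric transcription factor AP-1, Atf3 a related leucine zipper protein, Egr1 a zinc finger factor and Nr4a1 an orphan nuclear receptor, while Ier2 and Ier3 encode a nuclear regulator and a stress-responsive survival protein.

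Cells came from the thoracic aortae of wildtype C57BL6/N mice and were grown for 5 days in full medium, a culture in which contractile cells convert to modulated ones. Each preparation pooled on average 3 aortae, and the age and sex of the animals behind each library were not given in the sources used here. Cells were detached with trypsin/EDTA, filtered and loaded live for droplet-based single-cell RNA sequencing, and 2 libraries labelled biological replicates 1 and 2 were made under this 1 condition. Kept cells had at least 300 genes and 3000 UMIs (unique molecular identifiers, each marking 1 captured mRNA) and under 20% mitochondrial UMIs, which left 4866 cells in replicate 1 and 6824 in replicate 2.

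The members were chosen by their measured difference between the 2 libraries within cell classes, so that difference is given as a description with no test. With 1 library on each side, animals, culture and handling cannot be told apart. The file headers also name different Cell Ranger versions, 3.0.2 and 3.1.0, which cannot be told apart from these either. Cells were put in 4 exclusive classes. Endothelial cells had at least 2 UMIs in at least 2 of Pecam1, Cdh5, Cldn5 and Gja4 (102 and 141 cells in replicates 1 and 2). Cycling cells, among the others, had at least 2 UMIs in at least 2 of 6 cell cycle genes (1979 and 2286). The rest were Myh11-high with at least 5 UMIs of smooth muscle myosin heavy chain (277 and 491) or Myh11-low with at most 1 (2306 and 3653), and 202 and 253 cells with 2 to 4 UMIs lay between.

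Markers were then set beside these classes, Myh11 and 4 endothelial genes having been used to form them. The summed level of Acta2, Tagln, Cnn1, Myh11 and Myl9 was 26133 and 28565 UMIs per 1000000 UMIs of the class (CPM) in Myh11-high cells of replicates 1 and 2, against 6575 and 3589 in Myh11-low cells. The 7 endothelial markers summed to 2719 and 3104 CPM in endothelial cells and to at most 6.25 CPM elsewhere, with Cdh5 at 0 in Myh11-high cells of replicate 1. The 4 Schwann cell markers summed to 5.02 to 33.9 CPM over all classes and both libraries. The 5 macrophage markers summed to 45.2 CPM in cycling cells of replicate 1 and 4.62 CPM in those of replicate 2, with Lyz2 at 35.3 and 2.75 CPM, and to 2.56 to 34.9 CPM in the other classes. Their part in the library difference of cycling cells was not tested. Median depth was 22235 UMIs per cell in replicate 1 and 16310 in replicate 2, the median mitochondrial share was 3.69% and 5.08%, and 9 cell barcodes occurred in both libraries. RNA from barcodes of 1 to 100 UMIs, taken as free RNA, made up an estimated 3.19% and 3.80% of the UMIs of smooth muscle cells.

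Upstream sequence was at hand for 7 of the 10 members, from RefSeq on GRCm38.p6, as the 250 bases before the annotated start. Nr4a1 is shown because it had the largest library difference in every class but endothelial cells. Fos is shown because it differed between Myh11-high and Myh11-low cells, and Jun because its library difference ran the other way. Capitals mark the letters TGACG, the half-site of the cAMP response element, or CGTCA, the same letters on the other strand. All sequences run 5′ to 3′ on the strand of the gene.

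Nr4a1, chr15:101266596-101266845, plus strand: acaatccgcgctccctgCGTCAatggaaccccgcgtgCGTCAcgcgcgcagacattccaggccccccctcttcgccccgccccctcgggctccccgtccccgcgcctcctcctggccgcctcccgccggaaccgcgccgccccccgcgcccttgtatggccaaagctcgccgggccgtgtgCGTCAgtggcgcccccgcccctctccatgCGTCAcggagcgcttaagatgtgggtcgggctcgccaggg

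Fos, chr12:85473640-85473889, plus strand: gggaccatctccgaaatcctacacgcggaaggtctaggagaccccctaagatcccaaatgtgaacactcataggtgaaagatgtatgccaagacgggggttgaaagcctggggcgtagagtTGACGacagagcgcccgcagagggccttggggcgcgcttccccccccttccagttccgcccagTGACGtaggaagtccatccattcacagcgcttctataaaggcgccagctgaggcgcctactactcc

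Jun, chr4:95052223-95052472, minus strand: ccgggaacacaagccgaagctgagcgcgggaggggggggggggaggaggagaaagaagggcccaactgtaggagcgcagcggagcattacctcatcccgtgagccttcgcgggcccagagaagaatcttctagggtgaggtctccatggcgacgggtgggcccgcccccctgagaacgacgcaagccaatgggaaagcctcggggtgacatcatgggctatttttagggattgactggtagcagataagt

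The half-site occurred 4 times in the Nr4a1 window, at 233, 213, 69 and 40 bases before the start and always on the other strand. In the Fos window it occurred 2 times, at 129 and 66 bases before the start. The Atf3, Fosb and Junb windows each held 1, and those of Jun and Ier3 none, so that 5 of 7 member windows held it, against 17.8% of the 32851 windows of all genes. This motif was added after the windows had been read. The CArG box bound by serum response factor, TGANTCA, TGACGTCA (which contains the half-site) and GCGTGGGCG were searched on both strands and found in 0 of the 7 windows, against 1.47%, 6.75%, 1.55% and 0.536% of all windows. These counts describe exact letters within 250 bases only, and near matches, such as tgacatca in the Jun window, were not counted. The Fos and Jun windows end at the start of the gene in GENCODE, where Fos spans chr12:85473890-85477273 and Jun chr4:95049034-95052222, whereas the Nr4a1 window lies within the annotated gene, chr15:101254269-101274795.

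In every class but endothelial cells, where Atf3 did, Nr4a1 differed most between the libraries. Its level in Myh11-low cells was 188 CPM in replicate 1 and 38.8 CPM in replicate 2, in cycling cells 175 and 28.4 CPM, in Myh11-high cells 120 and 10.3 CPM, and in endothelial cells 89.7 and 31.4 CPM. Replicate 1 was thus higher in every class, by 4.85-fold, 6.18-fold, 11.7-fold and 2.85-fold. The share of cells with at least 1 Nr4a1 UMI moved likewise, from 85.3% to 36.3% of Myh11-low cells and from 68.6% (95% exact binomial interval 62.8 to 74.0) to 14.1% (11.1 to 17.5) of Myh11-high cells. Intervals of this kind cover counting error only. The median Myh11-high cell held 23601 and 18319 UMIs, and the share of smooth muscle cells with a UMI of the endothelial gene Pecam1, a measure of background, was between 0.657% and 1.81% in the 3 other classes of both libraries. At an equal depth of 3000 UMIs per cell the expected shares were 25.7% and 2.90% in Myh11-high cells. Over the members, 9, 9, 9 and 8 of 10 had a lower share in replicate 2 in Myh11-high, Myh11-low, cycling and endothelial cells, and 9, 9, 9 and 6 at the equal depth. Replicate 2 was the shallower library, and the same count over all genes was not taken. Since the members were also chosen on this difference, nothing is read from these counts. In replicate 2 the free RNA held 51.8 CPM of Nr4a1, more than any class of cells there, and accounted for an estimated 19.2% of the Nr4a1 UMIs of its Myh11-high cells.

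**Figure D1:**
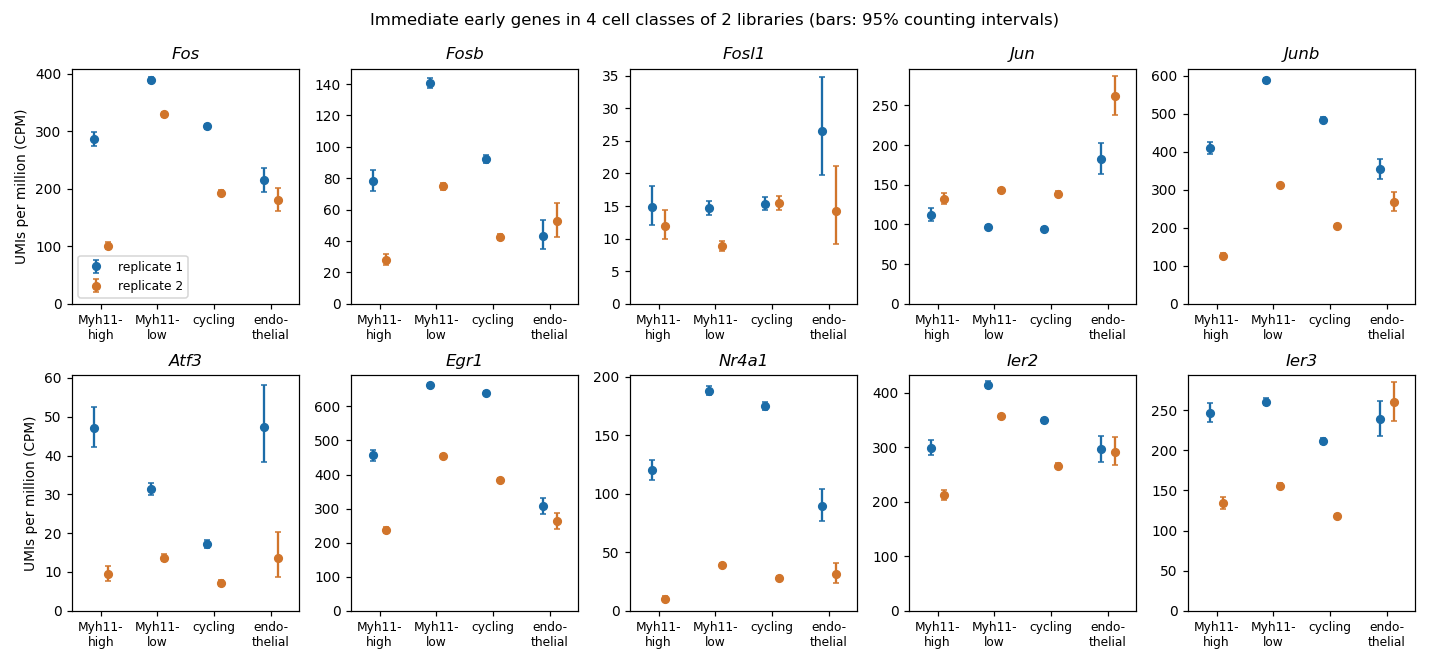
Level of each of the 10 genes in CPM (y axis, each panel with its own scale from 0) in the 4 cell classes (x axis) of replicate 1 (blue) and replicate 2 (orange). Points are the summed cells of 1 library, bars the exact 95% Poisson counting intervals. Nr4a1, Atf3 and Junb were higher in replicate 1 in all 4 classes, and Jun was higher in replicate 2 in all 4.

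Atf3, a factor induced by many kinds of stress, followed at lower levels. It stood at 47.2 CPM in replicate 1 and 9.43 CPM in replicate 2 in Myh11-high cells, at 31.4 and 13.7 CPM in Myh11-low cells, at 17.2 and 7.07 CPM in cycling cells and at 47.4 and 13.7 CPM in endothelial cells. It was at least 2-fold lower in replicate 2 in each class, the same as Nr4a1.

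Among the AP-1 subunits the difference was uneven. Junb was at 409.8 and 127 CPM in Myh11-high cells, 588 and 311 CPM in Myh11-low cells, 485 and 205 CPM in cycling cells and 354 and 268 CPM in endothelial cells. Fosb was at 78.2 and 28.0 CPM in Myh11-high cells, 141 and 74.8 CPM in Myh11-low cells and 92.4 and 42.5 CPM in cycling cells, and in endothelial cells its order turned, with 43.3 CPM in replicate 1 and 52.5 CPM in replicate 2. Fos was at 286 and 101 CPM in Myh11-high cells but at 389 and 329 CPM in Myh11-low cells, so that its library difference was 2.83-fold in the first class and 1.18-fold in the second. In cycling cells Fos was at 309 and 193 CPM, a 1.60-fold difference, and in endothelial cells at 215 and 181 CPM, a 1.185-fold difference.

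Jun, the partner with which Fos proteins form AP-1, was higher in replicate 2 throughout. It was at 112 and 132 CPM in Myh11-high cells, 96.5 and 143 CPM in Myh11-low cells, 94.1 and 139 CPM in cycling cells and 182 and 262 CPM in endothelial cells, a ratio of 1.18 to 1.48 in favour of replicate 2. The share of Myh11-low cells with a Jun UMI was 57.4% in replicate 1 and 65.7% in replicate 2, although replicate 2 was the shallower library, and 20.7% and 30.1% at the equal depth. Fosl1 was low everywhere, between 8.83 and 26.5 CPM, and was lower in replicate 2 in 3 classes, while in cycling cells its log2 ratio was 0.01 with a counting interval of -0.13 to 0.15.

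Egr1 was lower in replicate 2 in all 4 classes, with 456 and 237 CPM in Myh11-high cells, 662 and 454 CPM in Myh11-low cells, 639.8 and 385 CPM in cycling cells and 307 and 262 CPM in endothelial cells. Ier2 spanned 299 and 211 CPM in Myh11-high cells and 296 and 292 CPM in endothelial cells. Ier3 was at 261 and 156 CPM in Myh11-low cells, and in endothelial cells it was at 239 CPM in replicate 1 and 259.8 CPM in replicate 2, where the counting intervals overlapped.

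Called by a ratio of at least 2 among genes with a mean of at least 5 CPM in the class, 5 of the 10 members were lower in replicate 2 in Myh11-high cells, against 5.09% of the 9123 genes tested there. In Myh11-low cells 2 of 10 were lower (background 2.17%), in cycling cells 4 of 10 (2.08%) and in endothelial cells 2 of 10 (3.12%). None was at least 2-fold higher in replicate 2 in any class, against backgrounds of 1.62%, 1.59%, 1.73% and 2.25% in the same order. Since the members were chosen on this contrast, nothing is read from these counts. The median log2 ratio of replicate 2 over replicate 1 was -1.21 over the members in Myh11-high cells, -0.74 in Myh11-low, -0.79 in cycling and -0.24 in endothelial cells, beside medians of all genes of 0.02, 0.04, 0.04 and -0.00014. Nr4a1 and Atf3 were past 2-fold in all 4 classes (endothelial Nr4a1 not with the mean of the cells' CPM, 63.5 and 33.6), Junb and Fosb in the Myh11-high and cycling classes, and Fos in Myh11-high cells. Egr1 in Myh11-high cells lay just outside, at a log2 ratio of -0.94, as did Junb (-0.92) and Fosb (-0.91) in Myh11-low cells. Fosb in cycling cells lay just inside, at -1.12.

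**Figure D2:**
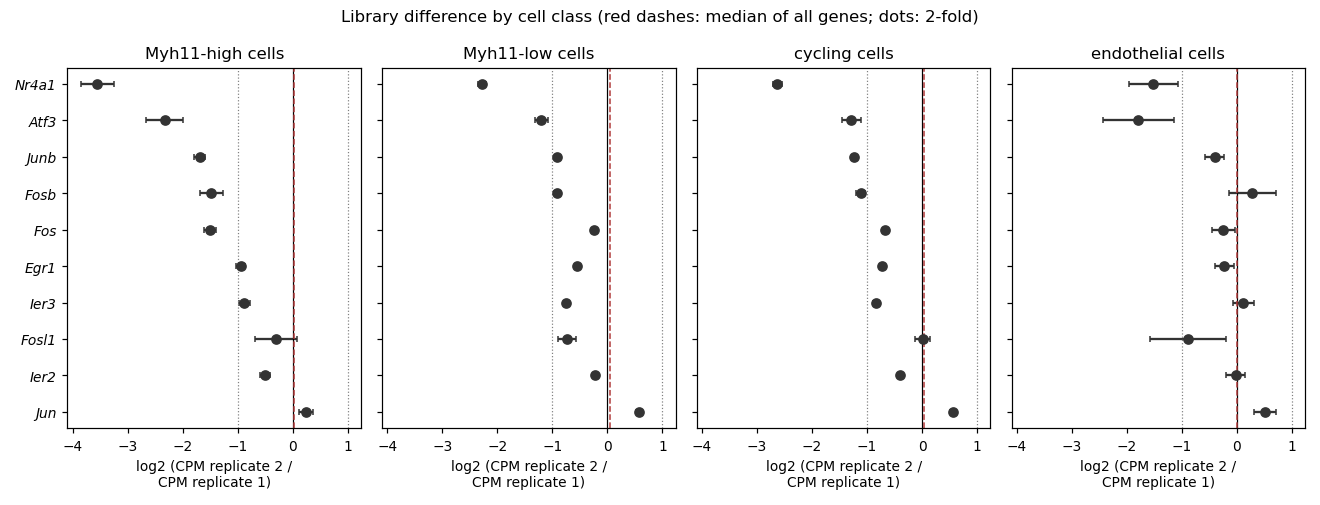
Log2 ratio of the CPM of replicate 2 over that of replicate 1 (x axis) for each gene (y axis) in the 4 cell classes. Points are ratios of summed cells, bars 95% counting intervals, the red dashes the median of all genes tested, and the dotted lines a 2-fold difference; Nr4a1 lay between -3.55 and -1.51, and Jun between 0.24 and 0.57.

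Depth and mitochondrial share moved with the library too, so the ratios were also taken within bins of Myh11-low cells. Nr4a1 had a log2 ratio of -2.14, -2.35 and -2.50 in the shallow, middle and deep cells of 3 bins of depth, and of -2.64, -2.22 and -2.20 in cells with under 4%, 4 to 6% and 6 to 20% mitochondrial UMIs. Jun stayed above 0 in each of these bins, from 0.41 to 1.00. Fosl1 was the 1 member whose sign turned, to 0.08 in cells under 4%. In the free RNA the log2 ratio was -1.82 for Nr4a1, -1.29 for Atf3, -1.19 for Fosb, -0.85 for Junb and 0.41 for Jun, and Fos was alike in both libraries, at 210 and 217 CPM.

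The class comparisons were not used to choose the members, but the library differences that were used came from the same classes. These comparisons are thus not independent of the choice, and its part in the calls below was not tested. Classes were compared within libraries on the 8 sums of UMIs (4 classes in 2 libraries), the library being a block. P-values came from the quasi-likelihood method of edgeR, with Benjamini-Hochberg adjustment over 14271 genes. The 2 libraries are the replicates, and the contrasts share the Myh11-low sums. In each contrast 10 of 10 members were tested. Calls near the threshold of 0.05 are weak, since false calls were more frequent than nominal when the test was run on simulated counts.

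Against Myh11-low cells, Myh11-high cells had lower levels of 5 of the 10 members: Fos, Fosb, Egr1, Nr4a1 and Ier2. The background was 10.9% of all genes called lower and 11.0% called higher, and 0 members were called higher; no member was higher at an unadjusted p under 0.05 by edgeR, nor by DESeq2. Without the library as a block 0 of the 10 were called. Over all genes 1573 were called higher and 1557 lower, and with total UMIs as the scale 1309 and 2119. Nr4a1 changed most, with a log2 fold change of -1.03 ± 0.31 (SE, adjusted p = 0.0497 by edgeR), a call that held in 4 of 8 alternatives. DESeq2 gave an adjusted p of 0.0588 for Nr4a1 and 0.0564 for Fosb and did not call them. Fosb followed with -1.02 ± 0.27 (adjusted p = 0.0346) and Fos with -0.94 ± 0.26 (adjusted p = 0.041). Egr1 fell by 0.65 ± 0.14 on the log2 scale (adjusted p = 0.0185) and Ier2 by 0.53 ± 0.11 (adjusted p = 0.0145). All 5 were lower in each of the libraries taken alone, but by more in replicate 2. The log2 differences in replicates 2 and 1 were -1.81 and -0.59 for Nr4a1, -1.60 and -0.38 for Fos, -1.31 and -0.79 for Fosb, -0.83 and -0.48 for Egr1 and -0.65 and -0.42 for Ier2. This gap between the libraries was not tested, with 1 library on each side.

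Junb, at -0.79 ± 0.24, missed the threshold with an adjusted p of 0.0543 by edgeR and passed it in 3 of 8 alternatives. Jun (0.13 ± 0.09, adjusted p = 0.364), Fosl1 (0.30 ± 0.22, adjusted p = 0.367), Atf3 (0.21 ± 0.23, adjusted p = 0.565) and Ier3 (-0.06 ± 0.21, adjusted p = 0.874) did not pass, and Atf3 took opposite signs in the libraries, 0.64 in replicate 1 and -0.43 in replicate 2. Markers of other cells moved with these calls. Lum, Pdgfra, S100a4 and Dcn, markers of modulated cells, summed to 3408 and 4710 CPM in Myh11-low cells of replicates 1 and 2 and to 2407 and 2420 CPM in Myh11-high cells. S100a4 made up most of these sums, at 2064 and 2298 CPM in Myh11-high cells, where the other 3 were lower in replicate 2, with Dcn at 221 and 82.5 CPM, Lum at 73.1 and 24.5 CPM and Pdgfra at 48.2 and 15.4 CPM. These 3 thus moved with the library difference of the members in that class, and their part in it was not tested. The 4 markers of adventitial fibroblasts summed to 448 and 419 CPM in Myh11-low cells against 112 and 54.4 CPM in Myh11-high cells. Ly6a held most of these sums, at 410.5 and 365.8 CPM against 86.2 and 36.0 CPM. Dpt was at 23.4 and 32.8 CPM against 19.4 and 5.43 CPM, and Cd34 at 11.3 and 17.2 CPM against 4.8 and 12.6 CPM. Pi16 was at 3.25 and 2.65 CPM against 1.46 and 0.41 CPM. The part of adventitial fibroblasts in the result was not tested.

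**Figure D3:**
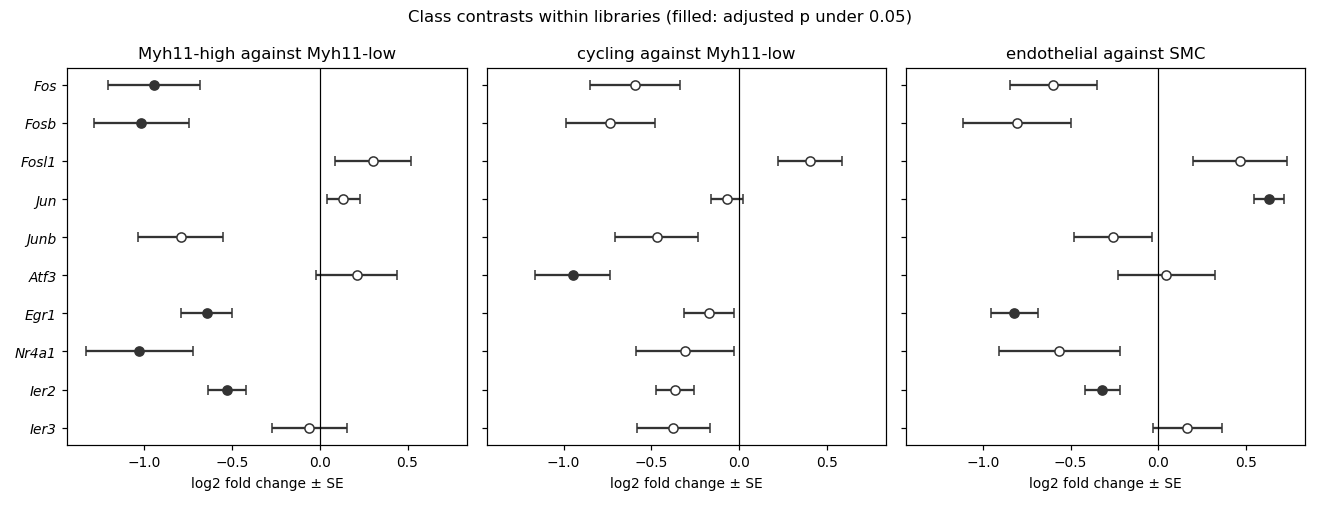
Log2 fold change ± SE (x axis) of each gene (y axis) from edgeR for Myh11-high against Myh11-low, cycling against Myh11-low, and endothelial against the mean of Myh11-high and Myh11-low cells (SMC). Filled points passed an adjusted p of 0.05: 5 genes lower in the first contrast, Atf3 lower in the second, and Egr1 and Ier2 lower and Jun higher in the third.

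Across the Myh11 counts of single cells the change was graded for some members, as a description of the same cells. In replicate 2 Fos was at 333 CPM in cells with 0 Myh11 UMIs, 283 with 1, 169 with 2 to 4, 107 with 5 to 9, 90.3 with 10 to 19 and 112 CPM with 20 or more. In replicate 1 it went from 392 CPM at 0 to 373 at 2 to 4, 328 at 5 to 9 and 246 CPM at 20 or more, so that most of the decline there came above 4 UMIs. Nr4a1 went from 189 to 66.2 CPM between the end bins of replicate 1. In replicate 2 it went from 39.1 to 14.2 CPM, with its lowest level, 7.29 CPM, at 10 to 19 UMIs. Junb went from 589 to 246 CPM in replicate 1 and from 314 to 133 CPM in replicate 2. Jun did not follow this order, at 96.8 CPM in the lowest and 141 CPM in the highest bin of replicate 1 and at 144 and 138 CPM in replicate 2. Between the end bins of replicate 1 Atf3 rose from 30.2 to 49.6 CPM, Ier3 from 265 to 284 CPM and Fosl1 from 14.8 to 19.6 CPM. In replicate 2 these genes fell between the end bins. Fosl1 did not fall steadily there, at 8.32 CPM with 0 UMIs, 12.07 to 14.95 CPM in the bins between and 5.10 CPM with 20 or more. Cells with more Myh11 UMIs were also deeper, with medians of 19488 and 26754 UMIs in the end bins of replicate 1.

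**Figure D4:**
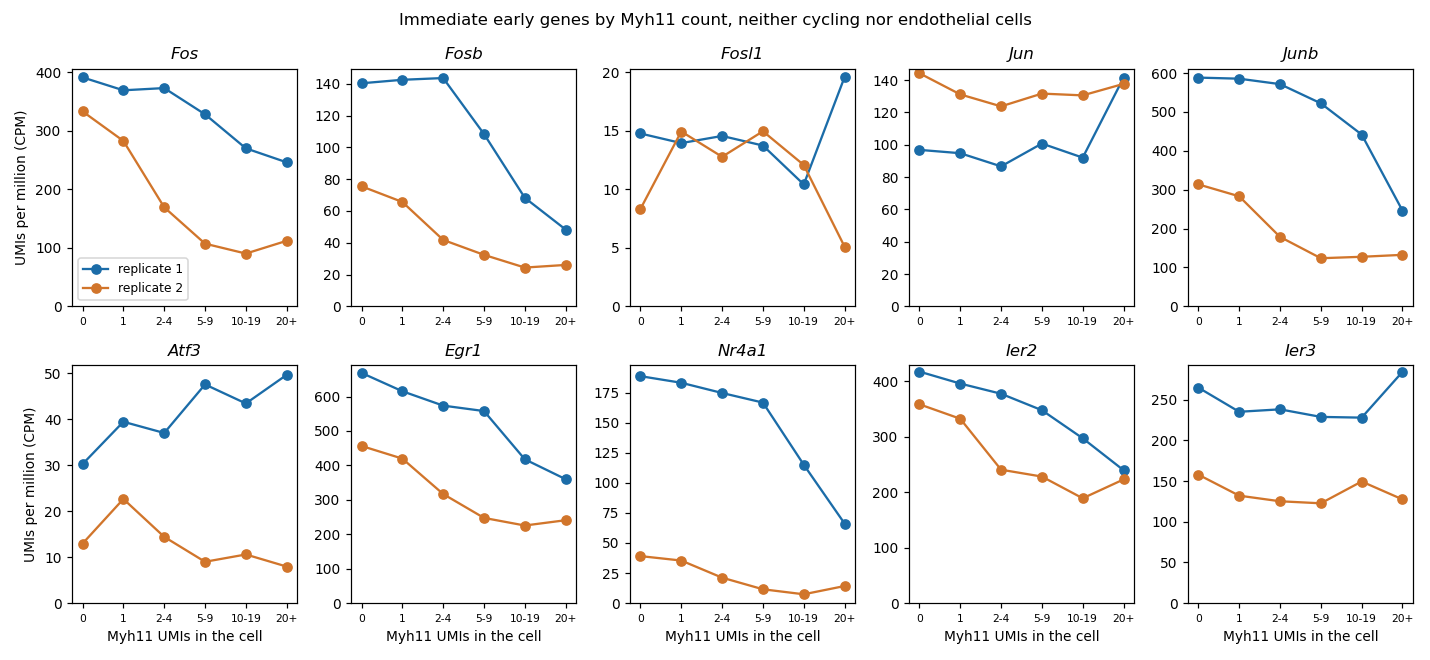
Level of each gene in CPM (y axis, from 0) against the number of Myh11 UMIs in the cell (x axis, 6 bins), for cells that were neither cycling nor endothelial, in replicate 1 (blue) and replicate 2 (orange). Each point is the sum of the cells of 1 bin, from 70 to 3377 cells; Fos, Junb, Egr1 and Nr4a1 were lower in the highest than in the lowest bin of both libraries.

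Inside the cycling class Fos, Nr4a1 and Egr1 were again lower in cells with more Myh11. Atf3 in replicate 1 did not rise there, at 17.0 CPM with at most 1 Myh11 UMI and 15.6 CPM with at least 5. Cycling cells with at most 1 Myh11 UMI had 326 CPM of Fos in replicate 1 and 234 CPM in replicate 2, against 196 and 81.5 CPM in cycling cells with at least 5. Nr4a1 was at 181 and 35.0 CPM against 121 and 9.09 CPM, and Egr1 at 669 and 435 CPM against 456 and 244 CPM. Fosl1 was alike in both, at 15.5 and 15.3 CPM against 15.6 and 14.7 CPM.

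Cycling cells as a whole differed from Myh11-low cells in 1 member, Atf3, which was lower by -0.95 ± 0.21 on the log2 scale (adjusted p = 0.0202 by edgeR) and by -0.92 and -0.96 in replicates 1 and 2 alone. Without the library as a block the adjusted p of Atf3 by edgeR was 0.736, and the call was lost. The background was 7.50% of genes called lower and 12.9% called higher, so 1 of 10 members lower was near the share of all genes. Ier2 was near the threshold, at -0.36 ± 0.11 (adjusted p = 0.0526), as was Fosb, at -0.74 ± 0.25 (adjusted p = 0.0812). The remaining 7 members had adjusted p-values from 0.147 for Fos to 0.644 for Jun. The cycling class kept 196 and 388 cells with at least 5 Myh11 UMIs in replicates 1 and 2, while Myh11-low cells had at most 1. The part of this in the contrast was not tested.

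Endothelial cells were set against the mean of Myh11-high and Myh11-low cells. Jun was higher in endothelial cells by 0.63 ± 0.09 on the log2 scale, a 1.55-fold difference (adjusted p = 0.00101 by edgeR), and by 0.56 and 0.70 in replicates 1 and 2 alone. Egr1 was lower by -0.82 ± 0.14 (adjusted p = 0.00245 by edgeR), and Ier2 by -0.32 ± 0.10 (adjusted p = 0.0403). In CPM both lay below Myh11-low cells in each library, but not always below Myh11-high cells. Ier2 was at 296 and 292 CPM in endothelial and 299 and 211 CPM in Myh11-high cells of replicates 1 and 2. Egr1 was at 307 and 262 CPM against 456 and 237 CPM. Jun was higher in endothelial cells than in either Myh11 class in both libraries. The backgrounds were 20.6% of genes called lower and 18.7% called higher. The counts of 2 of 10 members lower and 1 of 10 higher were not above these shares. The scale mattered here: with total UMIs in place of TMM factors (which level out the bulk of genes) the median of all genes moved from -0.07 to 0.17, and Ier2 was at -0.08 and no longer called, while Jun and Egr1 were called at 0.87 and -0.58. Over all genes 2675 were called higher and 2935 lower, and with total UMIs 3922 and 1821. Endothelial cells were set apart before cycling cells were, so they kept their cycling cells and the Myh11 classes did not, and the 6 cell cycle genes summed to 577 and 720 CPM in them. The adventitial fibroblast markers summed to 985 and 1176 CPM in endothelial cells. Of these sums Ly6a held 694 and 753 CPM and Cd34 265 and 405 CPM, both also made by endothelial cells. Dpt was at 2.55 and 5.71 CPM against 23.4 and 32.8 CPM in Myh11-low cells. Pi16 went the other way from Dpt, at 23.44 and 11.99 CPM against 3.25 and 2.65 CPM in Myh11-low cells. The part of these in the result was not tested. Without the library as a block none of the 3 genes was called, and the adjusted p by edgeR was then 0.0908 for Jun. Fos, Fosb, Junb and Nr4a1 were not called, and Nr4a1 was lower in endothelial cells in replicate 1 (-0.999) and higher in replicate 2 (0.43).

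Members differed in the share of cells that held them. Over the 4 classes and both libraries Egr1 had a UMI in 66.7% to 96.7% of cells and Ier2 in 78.0% to 94.6%, whereas Fosl1 had one in 9.93% to 27.5%, Atf3 in 9.97% to 43.7% and Nr4a1 in 14.1% to 85.3%. A median Myh11-low cell had UMIs of 8 of the 10 members in replicate 1 and of 6 in replicate 2, and 2.21% and 1.75% of these cells had none. The UMIs of the 10 genes together came to a median of 27.3 per 10000 UMIs of a cell in replicate 1 (10th to 90th percentile 12.1 to 46.8) and 18.6 in replicate 2 (7.06 to 32.9). In Myh11-high cells the medians were 19.2 and 8.98, and in endothelial cells 13.1 and 13.8. The tenth of the cells with the highest rates held 20.1% and 20.3% of the summed rate in Myh11-low cells and 28.0% and 28.9% in endothelial cells.

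**Figure D5:**
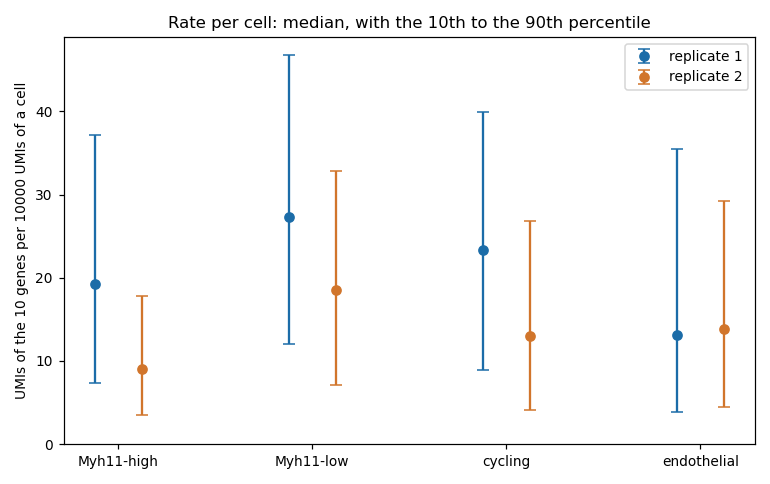
UMIs of the 10 genes per 10000 UMIs of a cell (y axis, from 0) in the 4 classes (x axis) of replicate 1 (blue) and replicate 2 (orange). Points are medians over cells and bars run from the 10th to the 90th percentile; the medians of replicate 2 were lower in 3 classes and alike in endothelial cells, at 13.1 and 13.8.

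Members differed in how they varied together from cell to cell, described by Pearson correlations of their depth-scaled log levels over the 2306 and 3653 Myh11-low cells of each library, which share depth and free RNA. Fos correlated most with Fosb in replicate 1 (0.54) and with Junb in replicate 2 (0.46), and with Egr1 at 0.50 and 0.43. Junb and Ier2 had 0.48 and 0.41. Jun was more loosely tied, with 0.23 and 0.24 to Fos and 0.14 and 0.13 to Junb. Fosl1 was at or under 0.08 with each of the other 9, and at -0.09 and -0.14 with Fos. Atf3 reached 0.22 and 0.18 with Jun. Both were sparse, Fosl1 with a UMI in 22.1% and 10.7% of these cells and Atf3 in 30.5% and 13.6%. The part of sparse counts in these low values was not tested.

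Over the 8 sums, Junb (0.98) and Nr4a1 (0.94) lay nearest to the mean profile of the other members, and Fosl1 (0.21) and Jun (-0.41) farthest. Of 5837 other genes with a mean of at least 20 CPM, the 5 with the highest correlation to the members' mean profile were Tfe3 (0.98), Slc38a10 (0.98), Stat3 (0.98), Mycbp2 (0.98) and Sfrp1 (0.97). Sfrp1, a secreted Wnt antagonist, was at 619.8 and 121 CPM in Myh11-low cells of replicates 1 and 2, and Stat3, a cytokine-activated transcription factor, at 153 and 103 CPM. The 8 sums come from 2 libraries, so these coefficients rest on few independent points.

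Other genes of the same response are given by lists, which were drawn up with earlier results of these data known and can share a gene, as with Srf. Of 29 further immediate early genes, 26 passed the floor in Myh11-low cells; 6 were at least 2-fold lower and 1 at least 2-fold higher in replicate 2, with a median log2 ratio of -0.48, beside 2.17% and 1.59% of all genes. The counts lower and higher were 7 and 0 of 26 in Myh11-high, 6 and 1 of 26 in cycling and 2 and 0 of 27 in endothelial cells. Of all genes 5.09% and 1.62%, 2.08% and 1.73%, and 3.12% and 2.25% were lower and higher in these classes. The genes named below for their library levels were picked from each list for large ratios, so nothing is read from the size of these. The other Nr4a receptors were, like Nr4a1, lower in replicate 2 in each class. Nr4a3 passed the floor of 5 CPM through replicate 1 only, being at 0.82 to 2.86 CPM in the classes of replicate 2. Nr4a3 was at 32.9 and 1.96 CPM in Myh11-low cells and at 21.6 and 0.82 CPM in Myh11-high cells of replicates 1 and 2, and Nr4a2 at 36.8 and 7.96 CPM and at 17.5 and 3.28 CPM. Gadd45b and Csrnp1 were at 137 and 42.6 CPM and at 30.8 and 9.17 CPM in Myh11-low cells.

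In the class contrasts these further genes were split, with 6 called lower and 6 called higher in Myh11-high against Myh11-low cells and a median of 0.03, beside 10.9% and 11.0% of all genes. Nr4a2 was lower by -1.05 ± 0.17 (adjusted p = 0.00501 by edgeR) and Egr3 by -1.49 ± 0.31 (adjusted p = 0.0146), while Hbegf, an EGF-family growth factor, was higher by 2.43 ± 0.23 (adjusted p = 0.000647) and Ctgf, a matrix protein induced by mechanical load, by 1.02 ± 0.06 (adjusted p = 0.000123). In cycling cells 9 of 29 were called lower and 1 higher (7.50% and 12.9% of all genes), and in endothelial cells 12 lower and 9 higher (20.6% and 18.7%).

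Of 20 genes listed as feedback inhibitors of the response, 18 passed the floor in Myh11-low cells and 0 reached 2-fold between the libraries there (median log2 ratio -0.15). In Myh11-high cells 3 of 18 were lower, beside 5.09% of all genes. Zfp36, which speeds the decay of short-lived mRNAs, was at 169 and 99.5 CPM in Myh11-low and at 121 and 44.3 CPM in Myh11-high cells of replicates 1 and 2. In Myh11-high against Myh11-low cells 8 of the 20 were called lower and 0 higher (median -0.40), beside 10.9% and 11.0% of all genes, among them Zfp36 at -0.72 ± 0.17 (adjusted p = 0.0233 by edgeR), Spred2, an inhibitor of Ras signalling, at -0.97 ± 0.13 (adjusted p = 0.0025) and Nab2, a corepressor of Egr1, at -0.52 ± 0.09 (adjusted p = 0.00827). In cycling cells 5 of 20 were called lower and 0 higher (7.50% and 12.9% of all genes), and in endothelial cells 9 lower and 4 higher (20.6% and 18.7%), the 4 being near the share of all genes. The calls of these 3 contrasts include Ndrg1, at -1.05, -0.86 and 1.46, which is not an established inhibitor of this response.

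Another list held 9 genes, for serum response factor, its partners and CREB-family factors. Mkl1, a coactivator of serum response factor, differed most between the libraries, with 23.6 and 12.4 CPM in Myh11-low cells. Crem, a cAMP-responsive factor, was higher in replicate 2 in each class, with 37.2 and 61.7 CPM in endothelial cells. Of 17 genes linked to AP-1, 7 of the 12 that passed the floor in Myh11-high cells were at least 2-fold lower in replicate 2 and 0 higher, beside 5.09% and 1.62% of all genes. The counts lower and higher were 3 and 1 of 13 in Myh11-low, 2 and 1 of 13 in cycling and 1 and 1 of 12 in endothelial cells. Of all genes 2.17% and 1.59%, 2.08% and 1.73%, and 3.12% and 2.25% were lower and higher in these classes. Cxcl1, a chemokine, was at 21.6 and 1.95 CPM in Myh11-high cells. Of 16 receptors for growth factors and other ligands, 4 of 11 were at least 2-fold lower in Myh11-high cells. In Myh11-low cells 1 of 12 was (with 1 higher), in cycling cells 1 of 11 and in endothelial cells 1 of 12, beside the same shares of all genes. Egfr was at 99.4 and 40.1 CPM in Myh11-low cells. In Myh11-high against Myh11-low cells 1 of 9, 4 of 14 and 8 of 16 tested genes of the 3 lists were called lower and 2, 5 and 2 higher, beside 10.9% and 11.0% of all genes.

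Stress and housekeeping genes were taken beside these. Of 12 heat shock genes 0, 1, 0 and 0 were at least 2-fold lower in replicate 2 in Myh11-high, Myh11-low, cycling and endothelial cells, with medians from -0.34 to -0.08 and Hspa1b at 64.5 and 31.6 CPM in Myh11-low cells. Of 10 genes of the integrated stress response 2 of 8, 0 of 7, 0 of 7 and 2 of 10 were, with Atf4, its central factor, at 192 and 112 CPM in Myh11-low cells. The shares of all genes at least 2-fold lower were 5.09%, 2.17%, 2.08% and 3.12% in the same order. Of the housekeeping genes that passed the floor, 9 or 10 in each class, none reached 2-fold in either direction in any class, and their medians ran from -0.03 to 0.19. In Myh11-high against Myh11-low cells 1 heat shock gene was called lower and 2 higher, 0 and 1 of the integrated stress response, and 1 and 5 of the housekeeping genes, beside 10.9% and 11.0% of all genes.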

How the data were processed

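Gene by cell matrices of UMI counts, which the authors deposited unfiltered, were made with Cell Ranger 3.0.2 per the labels; the file header of replicate 2 names 3.1.0, and the submitters' processing notes name mm10. Totals were 127949633 and 132561822 UMIs, and an exact interval at the 95% level covers counting error only. UMIs were summed per library and class as CPM of all UMIs, and cells of 1 library were not treated as replicates. Class contrasts used edgeR 4.0.16 in R 4.3.3 (TMM, filterByExpr, quasi-likelihood test, library as block, adjusted p threshold 0.05), with DESeq2 1.42.0 as an alternative. Deviations of sums from the same library correlated at 0.242 to 0.774 over 14271 genes. Such sums share 1 culture and 1 library, which is where the pairing comes from. The labels call the 2 libraries biological replicates, and nothing says that they are more than separate preparations. With the library as a block, p-values set a class difference against how much such differences varied between the libraries. That spread was estimated from all 4 classes in 1 fit. The p-values do not measure the difference between the libraries itself. On simulated data the share of false calls came out well above the nominal level, so calls near 0.05 are weak. No doublet caller was run; the tenth of cells with most UMIs was left out as an alternative.

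The members and lists were chosen with earlier results of these data known. Named were all members, up to 4 genes per list with the largest mean library ratio and at least 5 CPM in every class, list genes whose class contrast passed, and the 5 genes most alike.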

Additional observations from a re-analysis of the deposited data

Results flagged for a closer look

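Barcodes left out by the filters also held Fos, the signal being above the limit that a count of 0 allows. In barcodes with at least 3000 UMIs and at least 20% mitochondrial UMIs, Fos was at 36.9 CPM in replicate 1 and 163 CPM in replicate 2. In barcodes with at least 1000 but under 3000 UMIs it was at 51 CPM and 119 CPM. All of these values lay below the level of Fos in the free RNA, 210 and 217 CPM, whose part in them was not tested.

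Fosb and Ier3 had a log2 ratio of replicate 2 over replicate 1 of 0.28 and 0.12 in endothelial cells, against -1.48 and -0.88 in Myh11-high cells. The difference between the classes was not tested, with 1 library on each side, and the counting intervals of both endothelial ratios included 0 (-0.15 to 0.70 and -0.07 to 0.31). With the mean of the cells' CPM the ratio of Ier3 was -0.02.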

How the results depend on the processing

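Of the alternative values of counts of members, 109 stayed within 1.5 times and 15 did not. The 109 include counts that were 0 and stayed 0, such as members at least 2-fold higher in replicate 2 in Myh11-high cells. Of those of single genes, 558 kept direction and side of the threshold, or moved by less than their spread, and 74 moved by more. Another 10 came past the threshold, 17 lost it and 1 was counted as turned in sign, Atf3 in endothelial cells, at -0.18 with at least 10000 UMIs per cell. Turns were counted for library ratios only past 2-fold, and with 1 library alone only for called genes. Turns outside these rules went uncounted. Among them were Atf3 in Myh11-high cells, at -0.43 in replicate 2 alone against 0.21 in the main fit, and Nr4a1 in endothelial cells, at 0.43 against -0.56. The count of members at least 2-fold lower in replicate 2 in endothelial cells was 1, against 2, without the tenth of cells with most UMIs and with the mean of the cells' CPM, Nr4a1 being the gene that dropped out. With no replicate block, 0 members were called in each contrast, against 5 lower, 1 lower, and 2 lower with 1 higher. For Myh11-high against Myh11-low, DESeq2 called 3 lower, without Nr4a1 and Fosb. For cycling cells, RLE size factors, DESeq2, at least 10000 UMIs and Myh11 classes per 10000 UMIs gave 2 lower, and no filter on low counts 3. For endothelial cells, RLE size factors, DESeq2 and total UMIs, the last chosen after seeing the data, gave 1 lower. The cause of these changes was not tested. Without the block, Myh11-high against Myh11-low had 320 genes higher and 127 lower, and cycling cells 670 and 21.

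Over the 8 alternatives the adjusted p ran from 0.00318 to 0.426 for Fos and from 0.00493 to 0.834 for Nr4a1 in Myh11-high cells, from 0.00169 to 0.736 for Atf3 in cycling cells, and from 3.25e-09 to 0.0908 for Jun in endothelial cells. The 102 and 141 endothelial cells limit the precision of that class.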
